A study of Mus musculus with 12 samples.

Results

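Myeloid growth factors and IL-1 family cytokines were followed in 4T1 cells, a metastatic breast cancer line of mouse (BALB/c) origin. The group was chosen by gene symbol and holds 10 of the 35521 genes that received transcripts in these files: the colony-stimulating factors *Csf1*, *Csf2* and *Csf3*, the Kit ligand *Kitl*, the IL-1 family ligands *Il33*, *Il1a* and *Il18*, the IL-1 receptor antagonist *Il1rn*, and the receptor chains *Il1rap* and *Il1rl1*. 8 of the 10 passed the filter on low counts and were tested among 12555 genes. *Il1rn* and *Il1rl1* did not pass it, and their counts are given instead.

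Bulk RNA-Seq was done in 12 libraries, 4 for each of 3 groups. For the primed groups, Gr1+ cells (myeloid cells of the neutrophil and monocyte lineages) were isolated on magnetic columns from tumors or spleens of BALB/c mice bearing 4T1 tumors 21 days after injection. These cells were kept for 48 h across a 0.4 µm Transwell membrane from parental 4T1 cells, giving Tu-primed 4T1 (tumor Gr1+ cells) and Spl-primed 4T1 (spleen Gr1+ cells), while parental 4T1 had no Gr1+ cells. All 3 groups carry the same unmodified line, and nothing in the labels ties a replicate to a separate culture or donor mouse, so p-values measure the spread between these libraries, which may be technical.

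Colony-stimulating factors are secreted proteins that drive the growth and survival of myeloid cells: G-CSF (*Csf3*) acts on neutrophils, GM-CSF (*Csf2*) on granulocytes and macrophages, M-CSF (*Csf1*) on macrophages, and stem cell factor (*Kitl*) on hematopoietic progenitors and mast cells. IL-1 family cytokines signal through paired receptor chains, for which IL-1RAcP (*Il1rap*) is a shared partner, and then through MyD88 and IRAK kinases to NF-κB. 4T1 tumors are known for a strong expansion of granulocytes in the host.

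Library totals lay between 24566183 and 31637755 reads. The epithelial keratins *Krt8* and *Krt18* were read in every library, with group means of 871, 1071 and 1491 CPM (counts scaled to library size) for *Krt8* and 681, 838 and 1091 CPM for *Krt18* in Tu-primed, Spl-primed and parental 4T1. The summed level of 12 epithelial markers, most of it from keratins, was 1946 to 2384, 2434 to 2624 and 2706 to 4018 CPM in the same order. The list moved both ways against parental 4T1, with 11 of its genes tested. In Tu-primed 4T1, 5 were called lower and 2 higher (*Cldn4*, log2 0.41, and *Esrp1*, 0.24), where 28.0% and 31.2% of all tested genes were called. In Spl-primed 4T1, 4 were called lower and 2 higher (*Cldn4*, 0.39, and *Epcam*, 0.30), where 22.5% and 25.7% of all tested genes were called. Of 30 marker genes of Gr1+CD11b+ cells, 16 had at most 3 counts in every library, and 10 of these, including *Camp*, *Ngp* and *Tyrobp*, had none. The summed level of the marker list was 416.1 to 477 CPM in Tu-primed, 408.5 to 433 CPM in Spl-primed and 343 to 372 CPM in parental 4T1, most of it from *Itgb2* and *Mmp9*. Between the primed groups, 2 of the 8 tested markers were called higher in Tu-primed 4T1 and 0 lower (4.66% and 2.97% of all tested genes). These were *Ltf* (log2 fold change 1.16) and *S100a8* (0.93), which neutrophils express. Some other markers did not rise with them. *Ptprc* had 1 to 4 counts in Tu-primed, 1 to 7 in Spl-primed and 1 to 10 in parental 4T1. *Itgam* had at most 3, 6 and 3, and *S100a9* had none in Tu-primed 4T1. Against parental 4T1, 4 tested markers were called higher and 1, *Lcp1*, lower in Tu-primed (31.2% and 28.0% of all tested genes). *Ly6c2*, which encodes a Gr1 antigen, was too low to be tested, with 8 to 16 counts in Tu-primed, 2 to 6 in Spl-primed and 1 to 2 in parental 4T1, and its Tu-primed libraries overlapped neither other group. The *S100a8* call was lost without any 1 of 6 libraries (Tu-primed replicates 1, 2 and 3, Spl-primed 1, 2 and 4, adjusted p from 0.0642 to 0.104). It was also lost with transcript length offsets (adjusted p = 0.0607) and in the authors' normalized table (0.0657). The *Ltf* call was lost with transcript length offsets (adjusted p = 0.118) and in the authors' normalized table (0.106). The part of these markers in the results below was not tested. In a bulk sample, a change in the number of expressing cells and a change in RNA per cell cannot be told apart.

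Within a library, levels of different genes were compared in TPM, which scales counts for transcript length as well as library size. In Tu-primed 4T1, *Csf3* was the highest member at 283 ± 15.4 TPM (SD, n = 4), followed by *Il1a* at 185 ± 10.4 TPM and *Csf1* at 51.8 ± 1.29 TPM, and these 3 did not overlap. *Il1rap* (14.5 ± 1.01 TPM), *Kitl* (14.2 ± 1.21 TPM) and *Il33* (12.9 ± 0.977 TPM) formed the next level and overlapped each other. *Csf2* (6.22 ± 0.696 TPM) and *Il18* (6.03 ± 0.854 TPM) also overlapped. In parental 4T1, the ranges of *Csf3* (112 ± 22.2 TPM) and *Il1a* (88.7 ± 13.5 TPM) overlapped, *Csf1* had 39.3 ± 5.94 TPM, and *Csf2* was the lowest tested member at 0.977 ± 0.347 TPM. TPM was not used between groups, because the median of all tested genes was 0.49 higher on the log2 TPM scale in Tu-primed than in parental 4T1, against 0.02 in CPM after trimmed-mean (TMM) scaling.

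**Figure D1:**
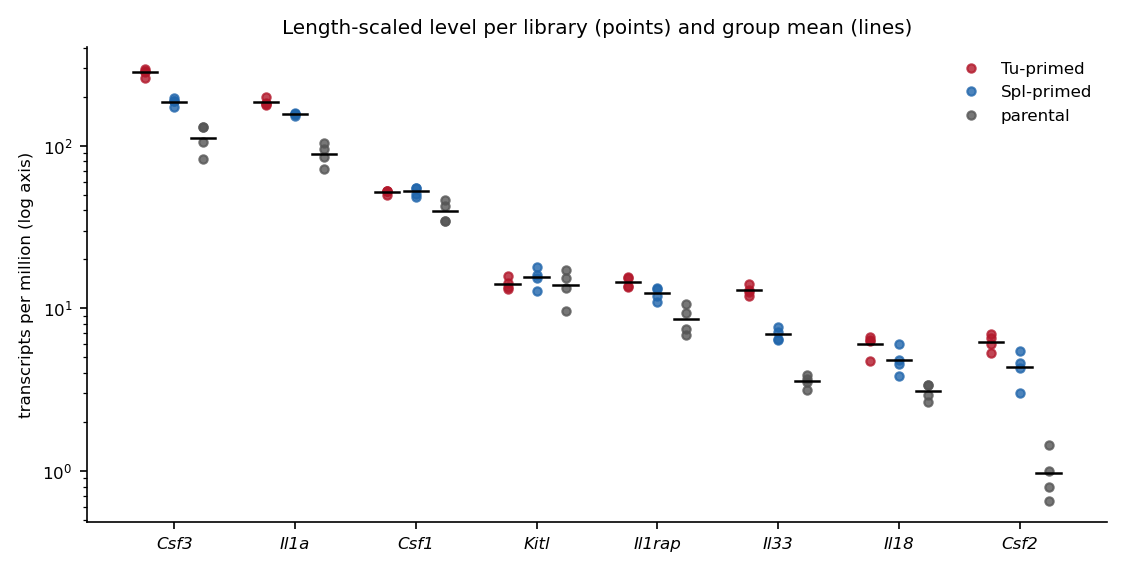
Length-scaled level of the 8 tested members, in TPM on a log axis, with 1 point per library, the 4 libraries of each group in a color, and a line at each group mean. *Csf3*, *Il1a* and *Csf1* lie above the other members in every group, and *Csf2* lies lowest in parental 4T1, at 0.977 TPM on average.

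More members were higher than lower in primed than in parental 4T1. Against parental 4T1, 5 tested members were higher in Tu-primed 4T1 (*Csf3*, *Csf2*, *Il33*, *Il1a* and *Il1rap*) and 1 was lower (*Kitl*), where 31.2% of all tested genes were called higher and 28.0% lower. In Spl-primed 4T1, 4 members were higher than in parental 4T1 (*Csf3*, *Csf2*, *Il33* and *Il1a*) and none was called lower by edgeR, where 25.7% of all tested genes were called higher and 22.5% lower. At an unadjusted p under 0.05, *Kitl* was also lower in Spl-primed 4T1. Between the primed groups, 2 members were higher in Tu-primed 4T1 (*Csf3* and *Il33*), where 4.66% of all tested genes were called higher, and none was called lower by edgeR or DESeq2, at an unadjusted p under 0.05 neither, where 2.97% of all genes were called. A call is an adjusted p under 0.05 in edgeR's quasi-likelihood test, with p-values adjusted after Benjamini and Hochberg over all tested genes. Both comparisons with parental 4T1 share the parental libraries, and both counts include *Csf2*, which passed the filter only through its primed libraries.

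The ranges of the libraries were also compared, with no test. The 4 Tu-primed libraries lay above the 4 Spl-primed libraries for 3 of the 8 tested members (*Csf3*, *Il33* and *Il1a*) and below them for 1 (*Csf1*), where 8.51% of tested genes did so in either direction. They lay above the parental libraries for 5 members and below them for 1, where 28.6% and 26.9% of tested genes did so. Spl-primed libraries lay above the parental ones for 5 members and below them for none, where 21.3% and 18.3% of tested genes did so. The median log2 fold change of the tested members was 0.20 between the primed groups, 0.51 for Tu-primed and 0.29 for Spl-primed against parental 4T1, beside medians of -0.01, 0.02 and 0.02 over all tested genes.

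**Figure D2:**
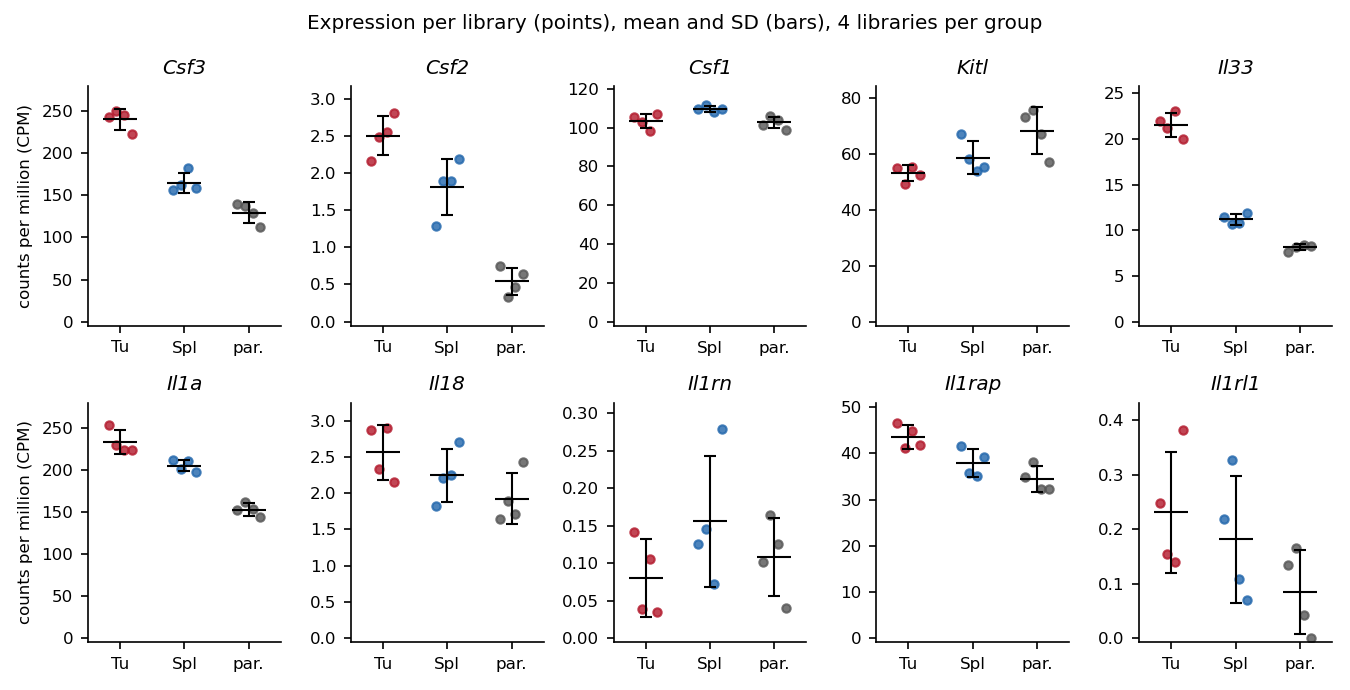
Level in CPM of each of the 10 members in each library (points), with the mean and SD of the 4 libraries of a group (bars), for Tu-primed (Tu), Spl-primed (Spl) and parental (par.) 4T1. *Csf3* and *Il33* fall from Tu-primed to Spl-primed to parental 4T1 with no overlap, from 240.3 to 165 to 129 CPM and from 21.5 to 11.2 to 8.13 CPM on average.

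*Csf3* (ENSMUSG00000038067, chromosome 11 from 98701263 to 98703629 on GRCm38), which encodes G-CSF, the main growth factor of neutrophils, had 243, 250.2, 245 and 223 CPM in the Tu-primed libraries. The Spl-primed libraries had 156, 162, 183 and 159 CPM, and the parental libraries 139, 137, 129 and 112 CPM. All Tu-primed libraries lay above all Spl-primed ones, and all Spl-primed ones above all parental ones. The fold change was 1.86 for Tu-primed against parental 4T1 (log2 0.89, SE 0.07, adjusted p = 6.11e-07). It was 1.27 for Spl-primed against parental 4T1 (log2 0.35, SE 0.07, adjusted p = 0.00158) and 1.46 between the primed groups (log2 0.54, SE 0.07, adjusted p = 0.000348). All reads of the gene were on its single annotated transcript.

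*Csf2* (ENSMUSG00000018916, chromosome 11 from 54247271 to 54249667), which encodes GM-CSF, was read at low counts. The Tu-primed libraries had 61, 64, 73 and 81 counts, the Spl-primed libraries 41, 52, 52 and 63, and the parental libraries 22, 8, 11 and 16. Every primed library lay above every parental one, while the highest Spl-primed library lay above the lowest Tu-primed one (2.19 against 2.17 CPM) and below the other 3. Relative to depth, *Csf2* rose 4.53-fold in Tu-primed 4T1 (log2 2.18, SE 0.25, adjusted p = 7.33e-06) and 3.27-fold in Spl-primed 4T1 (log2 1.71, SE 0.25, adjusted p = 0.000114) over parental 4T1. The difference between the primed groups was log2 0.47 (95% interval 0.01 to 0.92) and did not pass the adjusted test (adjusted p = 0.209). The gene passed the filter on low counts only through the primed libraries, where it is high, so its place among the tested and called members is no support for a pattern of the group. Fitted with no filter, the log2 fold changes of *Csf2* against parental 4T1 were 2.17 (adjusted p = 1.93e-06) and 1.69 (adjusted p = 6.72e-05).

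*Csf1* (ENSMUSG00000014599, chromosome 3 from 107741048 to 107760469), the macrophage growth factor, had 105.7, 103, 98.4 and 107 CPM in Tu-primed 4T1. The Spl-primed libraries had 109.6, 112, 108.0 and 109.5 CPM, and the parental libraries 102, 106, 104 and 99.0 CPM. The Spl-primed libraries lay just above the others, and the Tu-primed and parental libraries overlapped. None of the 3 comparisons was called: the log2 fold change of Tu-primed over parental 4T1 was 0.01 (95% interval -0.09 to 0.11, adjusted p = 0.855), and it turned to -0.01 with DESeq2's size factors and to -0.08 in the authors' normalized table. The gene was 0.10 higher on the log2 scale in Spl-primed than in parental 4T1 (adjusted p = 0.0994), which turned to -0.02 in the authors' normalized table and was called with upper-quartile scaling (0.12, adjusted p = 0.0415) and with protein-coding transcripts alone (0.14, adjusted p = 0.0252). Tu-primed 4T1 was 0.09 lower than Spl-primed 4T1 on the log2 scale, with an adjusted p of 0.296.

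*Kitl* (ENSMUSG00000019966, chromosome 10 from 100015630 to 100100416), which encodes stem cell factor, had 55.2, 49.4, 55.4 and 52.5 CPM in the Tu-primed libraries. The Spl-primed libraries had 67.2, 58.3, 54.1 and 55.4 CPM, and the parental libraries 73.3, 76.0, 67.4 and 57.1 CPM. All Tu-primed libraries lay below all parental ones, and the Spl-primed libraries overlapped both. *Kitl* fell by 0.37 on the log2 scale in Tu-primed 4T1, 1.29-fold below parental 4T1 (SE 0.09, adjusted p = 0.00267), and was the only member called lower in any comparison. In Spl-primed 4T1 the log2 difference from parental 4T1 was -0.22 (SE 0.09, adjusted p = 0.0514). That difference was called without Spl-primed replicate 1 (adjusted p = 0.0152) or without parental replicate 4 (adjusted p = 0.00763), and over all alternatives its adjusted p ran from 0.00763 to 0.138. The primed groups did not differ beyond their spread (log2 -0.15, 95% interval -0.33 to 0.04, adjusted p = 0.355).

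*Il33* (ENSMUSG00000024810, chromosome 19 from 29925114 to 29960718) encodes a nuclear cytokine that is released from damaged epithelial cells. The Tu-primed libraries had 22.0, 21.2, 23.1 and 19.96 CPM, the Spl-primed libraries 11.4, 10.6, 10.8 and 11.9 CPM, and the parental libraries 7.65, 8.11, 8.43 and 8.31 CPM. The 3 groups were apart, with the lowest Tu-primed library well above the highest Spl-primed one. Against parental 4T1, the rise was 2.65-fold in Tu-primed 4T1 (log2 1.41, SE 0.07, adjusted p = 1.38e-08) and 1.38-fold in Spl-primed 4T1 (log2 0.47, SE 0.07, adjusted p = 0.00015). Between the primed groups it was 1.92-fold (log2 0.94, adjusted p = 3.64e-06), and this was the largest difference of the 8 tested members in that comparison.

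*Il33* has 2 start sites in RefSeq (GRCm38.p6), and both windows are printed because its reads came almost entirely from one of them. Each is given with 250 bases before and 50 after it on the plus strand and in lower case, since neither window held a match to any of the 5 motifs searched.
Il33 distal start, chr19:29924863-29925162: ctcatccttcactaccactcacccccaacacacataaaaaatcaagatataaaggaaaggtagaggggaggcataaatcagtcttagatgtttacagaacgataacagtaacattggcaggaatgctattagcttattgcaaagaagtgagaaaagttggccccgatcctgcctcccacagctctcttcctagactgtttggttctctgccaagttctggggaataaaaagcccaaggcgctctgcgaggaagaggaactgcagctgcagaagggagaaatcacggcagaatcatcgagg
Il33 proximal start, chr19:29945540-29945839: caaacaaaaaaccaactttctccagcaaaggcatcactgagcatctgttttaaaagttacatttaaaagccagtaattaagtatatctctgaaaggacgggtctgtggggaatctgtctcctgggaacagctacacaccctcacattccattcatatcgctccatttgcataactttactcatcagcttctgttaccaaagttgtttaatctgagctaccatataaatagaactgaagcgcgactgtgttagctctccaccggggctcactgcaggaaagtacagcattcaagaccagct
The proximal start site lies at base 29945790, the first base of the shorter annotated transcript, which held 99.2% ± 1.66 of the gene's estimated counts in Tu-primed, 92.4% ± 14.0 in Spl-primed and 99.8% ± 0.365 in parental 4T1 (SD, n = 4). The transcript that starts at base 29925114, in the distal window, received estimated counts in 2 libraries, 16 in Tu-primed replicate 2 and 82.1 in Spl-primed replicate 2, and none in the other libraries. Both transcripts have the same coding length of 798 bases.

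*Il1a* (ENSMUSG00000027399, chromosome 2 from 129299610 to 129309972), an alarmin that signals through IL-1R1, was the most abundant IL-1 family ligand among the members. The Tu-primed libraries had 254, 230.0, 225 and 224 CPM, the Spl-primed libraries 212, 200.9, 211 and 198 CPM, and the parental libraries 152, 162, 153 and 144 CPM. The 3 groups did not overlap. *Il1a* rose 1.53-fold in Tu-primed 4T1 (log2 0.61, SE 0.06, adjusted p = 1.52e-06) and 1.34-fold in Spl-primed 4T1 (log2 0.43, SE 0.06, adjusted p = 5.25e-05) over parental 4T1. Between the primed groups the log2 difference of 0.18 (95% interval 0.06 to 0.30) missed the threshold (adjusted p = 0.0626). It was called without Spl-primed replicate 3 (adjusted p = 0.0322) or without parental replicate 4 (adjusted p = 0.0429), within a range of 0.00496 to 0.21 over all alternatives.

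The promoter windows of *Il1a* and of the other members were searched for 5 motifs on both strands: an NF-κB type motif (3 guanines, 5 free positions, 2 cytosines), the STAT motif TTCNNNGAA, an interferon response motif (a guanine and 3 adenines, 2 free positions, a guanine and 3 adenines), the AP-1 motif TGANTCA and the E-box CACGTG. Matches to the NF-κB type motif could overlap each other. RefSeq gave 13 windows for 9 of the 10 members. 3 windows are printed because they belong to a rising factor with a rare match, to *Csf2*, and to a factor that was not called in any comparison. Capitals mark the bases of motif matches. The RefSeq start site of *Csf2* (base 54249899) lies upstream of the start of the transcript counted here (base 54249667).
Il1a, chr2:129309923-129310222, minus strand: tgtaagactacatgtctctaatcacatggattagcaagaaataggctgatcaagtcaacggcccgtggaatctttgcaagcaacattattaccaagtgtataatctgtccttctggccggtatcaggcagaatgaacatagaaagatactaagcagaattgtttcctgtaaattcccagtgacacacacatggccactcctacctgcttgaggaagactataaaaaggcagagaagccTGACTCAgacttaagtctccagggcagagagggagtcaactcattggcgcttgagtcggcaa
Csf2, chr11:54249850-54250149, minus strand: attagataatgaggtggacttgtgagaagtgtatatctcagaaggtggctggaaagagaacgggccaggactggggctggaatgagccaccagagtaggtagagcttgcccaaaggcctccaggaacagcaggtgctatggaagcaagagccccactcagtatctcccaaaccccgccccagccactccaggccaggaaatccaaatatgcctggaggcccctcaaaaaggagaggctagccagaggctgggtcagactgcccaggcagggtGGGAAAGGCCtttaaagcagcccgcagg
Csf1, chr3:107760420-107760719, minus strand: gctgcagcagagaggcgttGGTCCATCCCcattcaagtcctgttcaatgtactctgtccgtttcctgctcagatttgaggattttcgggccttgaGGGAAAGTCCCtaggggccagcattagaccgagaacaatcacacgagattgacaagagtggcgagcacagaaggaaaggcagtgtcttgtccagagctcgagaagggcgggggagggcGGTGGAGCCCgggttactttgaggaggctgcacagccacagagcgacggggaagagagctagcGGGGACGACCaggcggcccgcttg
The *Il1a* window held 1 match to the AP-1 motif, with the letters TGACTCA at position -12, counted with the start site as 0. This motif is in 7.81% of the 32851 mouse windows of the same length and, among the members, also in a window of *Il1rn*. The NF-κB type motif is in 50.8% of all windows and was found in windows of 5 of the 9 members (*Csf1*, *Csf2*, *Kitl*, *Il1rn* and *Il1rap*). The most abundant transcript of *Csf1*, which was not called in any comparison, starts in a window with 5 matches, and both windows of *Il33* held none. The interferon response motif (3.44% of all windows) was found for *Il1rap* alone, and the STAT motif (8.3%) and the E-box (7.15%) in no member window. The only *Il18* window has its start site at base 50554700, upstream of the start of the gene's most abundant transcript (base 50565374), whose promoter was not searched.

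*Il18* (ENSMUSG00000039217, chromosome 9 from 50554827 to 50581840), a cytokine that needs cleavage by caspase-1, was read at 60 to 83 counts in Tu-primed, 58 to 78 in Spl-primed and 41 to 61 in parental 4T1. The groups overlapped in all comparisons. The log2 difference of Tu-primed from parental 4T1 was 0.42 (95% interval 0.02 to 0.81, adjusted p = 0.0637). It was called without Tu-primed replicate 4 (adjusted p = 0.043) or without parental replicate 4 (adjusted p = 0.0226), and over all alternatives the adjusted p ran from 0.0226 to 0.156. Spl-primed 4T1 differed by log2 0.22 from parental 4T1 (95% interval -0.17 to 0.62, adjusted p = 0.332), and the primed groups by 0.19 (adjusted p = 0.575).

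*Il1rn* (ENSMUSG00000026981, chromosome 2 from 24336853 to 24351494), whose product blocks IL-1R1, had 4, 1, 3 and 1 counts in Tu-primed, 4, 4, 2 and 8 in Spl-primed, and 3, 4, 3 and 1 in parental 4T1. A count of 0 in a library of this size would allow up to 3 counts, or 0.122 CPM in the shallowest library, so most of these values lie near the limit of detection. An exact two-sided permutation test of CPM, added after these counts were seen, gave adjusted p values from 0.457 to 0.543 over the 3 comparisons of *Il1rn*, where the smallest p that 4 against 4 libraries allow is 0.0286. A difference was not detectable at this depth, and a complete separation in 1 comparison could not by itself pass the adjusted test.

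*Il1rl1* (ENSMUSG00000026069, chromosome 1 from 40429570 to 40465415) encodes ST2, the receptor of IL-33, and had 7, 4, 4 and 11 counts in Tu-primed, 7, 9, 3 and 2 in Spl-primed, and 4, 4, 1 and 0 in parental 4T1. The ranges overlapped in each comparison. The same exact permutation test, with the same limit, gave adjusted p values of 0.457 for both primed groups against parental 4T1 and 0.543 between them. On the TPM scale, the receptor stood at 0.0998 in Tu-primed 4T1, where its ligand *Il33* stood at 12.9.

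*Il1rap* (ENSMUSG00000022514, chromosome 16 from 26581704 to 26730117), the shared second chain of the receptors for IL-1, IL-33 and IL-36, had 46.5, 41.2, 44.8 and 41.8 CPM in the Tu-primed libraries. The Spl-primed libraries had 41.6, 35.8, 35.1 and 39.3 CPM, and the parental libraries 35.0, 38.2, 32.3 and 32.3 CPM. The Tu-primed libraries lay above all parental ones, and the Spl-primed libraries overlapped both. *Il1rap* rose 1.26-fold in Tu-primed over parental 4T1 (log2 0.34, SE 0.07, adjusted p = 0.00114). In Spl-primed 4T1 the log2 difference was 0.14 (adjusted p = 0.126), and it was called only without parental replicate 2 among the libraries left out (adjusted p = 0.0402) and, among the other settings, with protein-coding transcripts alone (0.0444), in a range of 0.0402 to 0.334 over all alternatives. The primed groups differed by log2 0.20 (95% interval 0.05 to 0.35, adjusted p = 0.11).

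**Figure D3:**
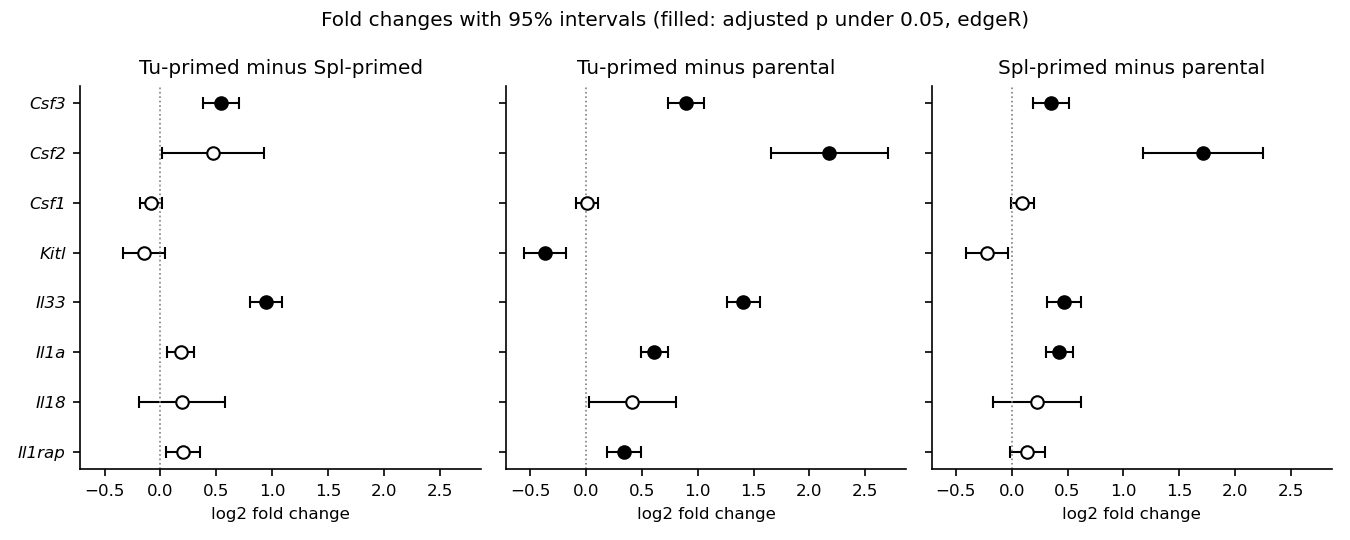
Log2 fold changes of the 8 tested members from edgeR's quasi-likelihood fit, with 95% intervals, in 3 panels for the 3 comparisons, with filled circles for an adjusted p under 0.05. *Csf2* lies at 2.18 and 1.71 against parental 4T1 with wide intervals, *Csf3* and *Il33* are filled in every panel, and *Kitl* is filled to the left of 0 in 1 panel.

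Several of these genes make proteins of different form from different transcripts, so the share of each gene's estimated counts on its 2 main transcripts was compared. *Csf1* counts fell mostly on the main transcript with a coding sequence of 1656 bases, that of the secreted form. It held 68.3% ± 2.27 in Tu-primed, 63.3% ± 3.03 in Spl-primed and 68.9% ± 5.22 in parental 4T1 (SD, n = 4). Another transcript with the same coding length held 2.25% ± 0.899, 3.87% ± 0.598 and 3.33% ± 1.27 in the same order. The transcript with the short coding sequence of 771 bases, that of the membrane-bound form, held 23.9% ± 1.5, 28.0% ± 3.57 and 21.0% ± 3.01. All Spl-primed libraries (23.7% to 32.4%) lay above the parental ones (17.1% to 23.6%), an exact permutation p of 0.0286, the smallest the design allows, and an adjusted p of 0.196 over the 24 tests of the family. *Kitl* counts were nearly all on the transcript with 819 coding bases, at 99.2% ± 0.596, 98.2% ± 1.23 and 98.2% ± 0.621. The transcript with the shorter coding sequence of 735 bases, which lacks the exon of the main cleavage site, held 0.66% ± 0.515 in Tu-primed and 1.64% ± 0.406 in parental 4T1, again with an exact permutation p of 0.0286 and an adjusted p of 0.196. For *Il1rap*, the shorter transcript with 1080 coding bases held 3.1% ± 0.969, 4.89% ± 0.808 and 3.19% ± 1.00, and its lowest adjusted exact permutation p was 0.196. No share passed the adjusted test. A complete separation of 2 groups could not pass it by itself over the 24 tests, so this does not show that the shares were equal. Splitting reads between transcripts of a gene is also an estimate.

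**Figure D4:**
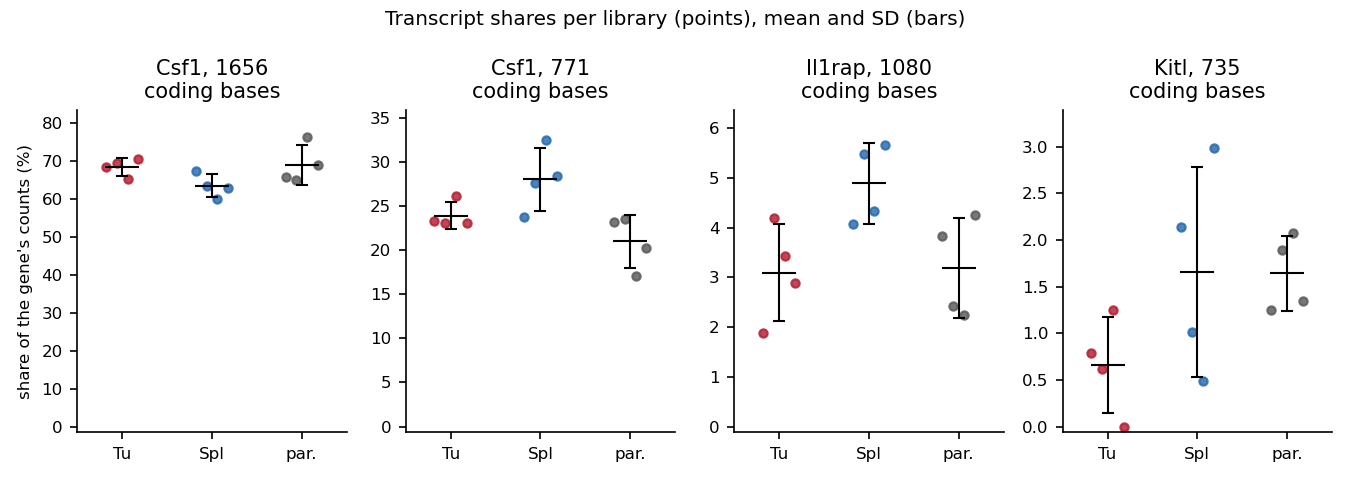
Share of a gene's estimated counts, in percent, on 4 transcripts in each library (points) with the mean and SD of the 4 libraries of a group (bars), for Tu-primed (Tu), Spl-primed (Spl) and parental (par.) 4T1. The *Csf1* transcript with 771 coding bases lies between 23.7% and 32.4% in Spl-primed and between 17.1% and 23.6% in parental 4T1, and the *Kitl* and *Il1rap* transcripts shown hold less than 6% in every library.

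The receptors of the colony-stimulating factors and of Kit ligand were read at very low counts in these cells. Of 6 such genes, *Csf2ra* had no count in any library, *Kit* had at most 1, *Csf3r* at most 2, *Csf1r* at most 10 and *Csf2rb2* at most 10, and none of these was tested. *Csf2rb*, the shared beta chain, had 24, 19, 20 and 7 counts in Tu-primed, 4, 5, 6 and 3 in Spl-primed, and 5, 10, 3 and 4 in parental 4T1. It was called higher in Tu-primed than in Spl-primed (log2 1.98, SE 0.45, adjusted p = 0.0146) and than in parental 4T1 (log2 1.54, SE 0.44, adjusted p = 0.008). The first call was lost without Tu-primed replicate 1 (adjusted p = 0.0565) or Spl-primed replicate 1 (adjusted p = 0.0517), in a range of 0.00235 to 0.0613 over all alternatives. With the 8 libraries of the primed groups alone, *Csf2rb* did not pass the filter on low counts and was not fitted. It passed mainly through Tu-primed libraries, where it is high, so its calls are no support for a pattern of these receptors. *Csf2rb* and *Csf2rb2* are near-identical copies, so that reads could be split wrongly between them, and the counts of both are uncertain.

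Among IL-1 family receptors, 3 of 8 were tested. *Il1r1*, the signaling receptor of IL-1α and IL-1β, had 42.1 ± 4.59 CPM in Tu-primed, 35.6 ± 4.44 in Spl-primed and 26.7 ± 3.90 in parental 4T1 (SD, n = 4) and was called higher in both primed groups (log2 0.66 and 0.41, adjusted p = 0.000217 and 0.00802). *Il18rap*, the accessory chain of the IL-18 receptor, was higher in Tu-primed than in Spl-primed (log2 0.31, adjusted p = 0.00643) and than in parental 4T1 (0.81, adjusted p = 3.57e-07). Its first call was lost with transcript length offsets (adjusted p = 0.293) and in the authors' normalized table (0.28). The binding chain *Il18r1* had no count in any library. *Sigirr*, an inhibitory member of the family, fell by 0.57 on the log2 scale in Tu-primed (adjusted p = 0.000188) and by 0.25 in Spl-primed 4T1 (adjusted p = 0.0448) against parental 4T1. The Spl-primed call was lost without any 1 of 8 libraries (Tu-primed replicates 1, 2 and 3, Spl-primed 1, 2 and 4, parental 3 and 4, adjusted p from 0.0515 to 0.15). *Il1r2*, the decoy receptor, had at most 6 counts, *Il1rl2* at most 3, and *Il1rapl1* and *Il1rapl2* none.

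Of 7 other IL-1 family ligands and binding proteins, 3 were tested. *Il18bp*, whose product neutralizes IL-18, had 3.08 ± 0.52 CPM in Tu-primed, 2.33 ± 0.573 in Spl-primed and 0.763 ± 0.18 in parental 4T1 (SD, n = 4) and rose against parental 4T1 by log2 2.00 (adjusted p = 1.05e-05) and 1.60 (adjusted p = 0.000133). *Il1b* had 16 to 31 counts in Tu-primed, 14 to 23 in Spl-primed and 7 to 15 in parental 4T1, and was called higher only in Tu-primed 4T1 (log2 0.95, adjusted p = 0.0114). This call was lost with transcript length offsets (adjusted p = 0.093) and in the authors' normalized table (0.0917). *Il1b* passed the filter on low counts through primed libraries, where it is high, so its call is no support for a pattern of the list. In Spl-primed 4T1 the *Il1b* difference of log2 0.73 (adjusted p = 0.0541) was called without Tu-primed replicate 3 (0.0448), Spl-primed replicate 2 (0.0481) or parental replicate 1 (0.0455). *Il36g* (log2 0.13 and 0.20 against parental 4T1, adjusted p = 0.719 and 0.582) was not called. *Il36a* had at most 1 count, and *Il36b*, *Il36rn* and *Il1f10* had none.

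Of 12 other hematopoietic growth factors, 6 were tested. Against parental 4T1, 5 were called higher and none lower by edgeR in each primed group, also at an unadjusted p under 0.05. Of all tested genes, 31.2% (Tu-primed) and 25.7% (Spl-primed) were called higher, and 28.0% and 22.5% lower. Median log2 fold changes of the list were 0.75 and 0.74, beside 0.02 over all tested genes. *Lif*, a cytokine of the IL-6 family, had 115 ± 9.39 CPM in Tu-primed, 95.3 ± 8.11 in Spl-primed and 47.7 ± 7.87 in parental 4T1 (SD, n = 4), or log2 1.27 and 1.00 over parental 4T1. *Tslp*, an epithelial cytokine that acts on dendritic cells, was higher by log2 0.66 and 0.76 and did not differ beyond its spread between the primed groups (-0.10, adjusted p = 0.286). *Il34* was called in Spl-primed 4T1 alone (log2 0.30, adjusted p = 0.0109, against 0.15 and 0.152 in Tu-primed 4T1), and *Il7* in Tu-primed 4T1 alone (0.52, adjusted p = 0.0294, against -0.20 and 0.416 in Spl-primed 4T1). *Il34* differed by log2 -0.15 between the primed groups (adjusted p = 0.325), and its calls were not followed under the alternatives. The *Il7* call in Tu-primed 4T1 was lost without any 1 of 5 libraries (Tu-primed replicates 1, 3 and 4, parental 2 and 4, adjusted p from 0.0506 to 0.0796). *Flt3l* was higher by log2 1.39 and 1.33, but with protein-coding transcripts alone the values were 0.52 (adjusted p = 0.134) and 0.23 (adjusted p = 0.549). *Il7* was the only gene of the list called between the primed groups (log2 0.71, adjusted p = 0.0319), and this was lost without any 1 of 6 libraries (Tu-primed replicates 1, 3 and 4, Spl-primed 2, 3 and 4, adjusted p from 0.0604 to 0.1). *Il3* and *Epo* had no count, *Osm* at most 2, *Il5* at most 3, *Thpo* at most 5 and *Il6* at most 9.

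**Figure D5:**
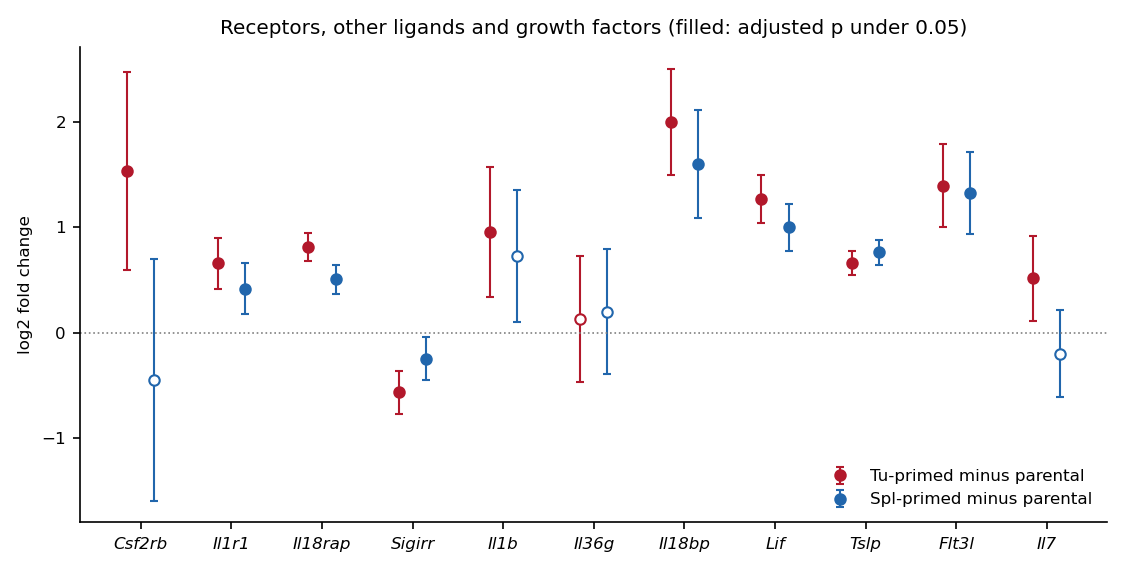
Log2 fold changes against parental 4T1 with 95% intervals for receptors (*Csf2rb* to *Sigirr*), other IL-1 family ligands and a binding protein (*Il1b* to *Il18bp*) and other growth factors (*Lif* to *Il7*), for Tu-primed and Spl-primed 4T1, with filled circles for an adjusted p under 0.05. *Il18bp* has the largest values, 2.00 and 1.60, and *Sigirr* is the only gene filled below 0, at -0.57 and -0.25.

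In the machinery that processes IL-1 family cytokines, 12 of 18 genes were tested. Between the primed groups 4 were called higher and none lower by edgeR in Tu-primed 4T1 (1 lower at an unadjusted p under 0.05, with 4.66% and 2.97% of all tested genes called), with a median log2 fold change of 0.17 beside -0.01 over all tested genes. *Casp4*, the inflammatory caspase that senses lipopolysaccharide, had the smallest p, with 10.6, 11.5, 9.89 and 6.84 CPM in the Tu-primed and 4.80, 5.41, 4.87 and 5.22 CPM in the Spl-primed libraries (log2 0.93, SE 0.14, adjusted p = 0.000687). *Casp1*, which cleaves pro-IL-1β and pro-IL-18, was higher by log2 0.42 (adjusted p = 0.00639). *Aim2*, a DNA sensor, was higher by 0.77 (adjusted p = 0.0426), which was lost without any 1 of 7 libraries (Tu-primed replicates 1, 2 and 3, Spl-primed 1, 2 and 3, parental 1, adjusted p from 0.0606 to 0.139). *Mefv* (pyrin) was higher by 0.94 (adjusted p = 0.0385), which was lost without any 1 of 7 libraries (Tu-primed replicates 1 to 4, Spl-primed 1, 2 and 4, adjusted p from 0.0642 to 0.12). Against parental 4T1, edgeR called 6 genes higher and 3 lower in Tu-primed (31.2% and 28.0% of all tested genes), and 3 higher and 3 lower in Spl-primed 4T1 (25.7% and 22.5%). *Gsdmd*, the pore-forming gasdermin, rose by log2 0.73 and 0.59 and *Aim2* by 1.70 and 0.94. In parental 4T1, *Aim2* had 9 to 18 counts and *Mefv* 3 to 11. Both genes passed the filter on low counts through primed libraries, where they are high. Their calls against parental 4T1 are therefore no support for a pattern of the list. *Gsdme* fell by 0.28 on the log2 scale in Tu-primed 4T1 and *Capn2*, a calpain, by 0.22 in Spl-primed 4T1, a call that was lost with transcript length offsets (adjusted p = 0.0727). *Capn1* fell by 0.16 and 0.26, and its Tu-primed call was lost without any 1 of 5 libraries (Tu-primed replicates 1, 2 and 3, parental 3 and 4, adjusted p from 0.0534 to 0.0946). *Pycard*, the adaptor of most inflammasomes, and *Nlrp1a* had no count in any library, and *Nlrp3* had at most 11.

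In the MyD88-IRAK-TRAF6 pathway, 16 of 18 genes were tested. Against parental 4T1, 7 genes were called higher and none lower by edgeR in Tu-primed (1 lower at an unadjusted p under 0.05, with 31.2% and 28.0% of all tested genes called), and 6 higher and 2 lower in Spl-primed 4T1 (25.7% and 22.5%). Median log2 fold changes were 0.10 for Tu-primed and -0.00 for Spl-primed against parental 4T1 and 0.09 between the primed groups, beside 0.02, 0.02 and -0.01 over all tested genes. *Irak2*, a kinase induced by IL-1 signaling, had 18.8 ± 0.938 CPM in Tu-primed, 15.6 ± 0.444 in Spl-primed and 10.8 ± 0.963 in parental 4T1 (SD, n = 4), or log2 0.79 and 0.52 over parental 4T1 (adjusted p = 1.11e-06 and 6.67e-05). *Map3k8* (log2 1.14 and 0.83) and *Chuk* (0.53 and 0.47), kinases upstream of ERK and NF-κB, also rose against parental 4T1. *Traf6* fell by 0.33 on the log2 scale in Spl-primed 4T1, and *Tab3* by 0.27, which was lost without any 1 of 5 libraries (Spl-primed replicates 2 and 4, parental 1, 2 and 3, adjusted p from 0.0544 to 0.0929). Between the primed groups, *Irak2* (log2 0.27) and *Ikbkg* (0.20) were called higher in Tu-primed 4T1. The *Irak2* call was lost without Tu-primed replicate 1 or 2 or Spl-primed replicate 1 or 4 (adjusted p from 0.054 to 0.0927), and that of *Ikbkg* without Tu-primed replicate 1, 2 or 3, Spl-primed replicate 2 or parental replicate 3 (0.0512 to 0.101).

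As a description, the tested genes whose log2 CPM followed each member most closely over the 12 libraries were listed by Pearson's r, with no test, since all values share the same 3 groups. For *Il1a* these were *Irak2* (r = 0.987), *Il18rap* (0.983) and *H2-Q10* (0.978). *Il33* was followed by *Osbpl9* (0.992), *Has2* (0.99), which makes hyaluronan, and *Mapkapk3* (0.987), and *Csf3* by *Clip4* (0.984), the Notch ligand *Dll1* (0.98) and the complement protease *C1s1* (0.978). *Csf2* was followed by *Cercam*, *Cyp4f13* and *Fam214b* (0.985 to 0.987), *Kitl* by *Abce1*, *Tgfbr2* and *Syde2* (0.954 to 0.968) and *Il1rap* by *Arel1*, *Washc4* and *Lrig2* (0.96 to 0.962). The likeness was lower for *Csf1* (*1110002E22Rik*, *Pard6b* and *Dagla*, 0.881 to 0.939) and *Il18* (*Ccrl2*, *Tmem175* and *Harbi1*, 0.888 to 0.907). Among the members themselves, *Csf3* and *Il33* were the closest pair (r = 0.954), and *Kitl* ran against *Csf2* (-0.83).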

How the data were processed

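RNA-Seq was analysed in 12 libraries in 3 groups of 4, grouped by their labels. The deposited files give estimated counts and TPM per Ensembl transcript, made by the authors with Salmon 1.4.0 after trimming with Trimmomatic 0.39, with FastQC also named in the submitters' processing notes (GRCm38). A further table holds the authors' normalized counts per gene, a signal whose scaling is not given in the sources used here. Estimated counts were summed per gene with the GENCODE M21 annotation and rounded. Transcripts outside that annotation held 0.326% to 0.419% of the reads and were left out. Genes passing filterByExpr were fitted together over the 12 libraries with edgeR 4.0.16 (TMM scaling, quasi-likelihood test, R 4.3.3), and p-values were adjusted over all 12555 genes after Benjamini and Hochberg. CPM are TMM-scaled. Depth limits low genes: a count of 0 allows 3 counts, a limit that covers counting error only. Intervals of fold changes come from the quasi-likelihood fit, which also takes in the spread between libraries. The method was tested on simulated data.

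Alternatives were DESeq2 1.42.0, limma-voom (limma 3.58.1), other scalings and filters, the 8 libraries compared alone, a replicate block, protein-coding transcripts only, length offsets, limma on log2 of the normalized table plus 1, and leaving out each library. Transcript shares were compared by exact two-sided permutation tests, as were the CPM of *Il1rn* and *Il1rl1*, a test added after their counts were seen. Named are all members, all genes of the receptor and other IL-1 lists, the 3 called genes with the smallest p per direction and comparison in the other lists, and the 3 genes most correlated with each member. *Nlrp3* and *Pycard*, and *Aim2* between the primed groups, were named after their values were seen. *Il34*, *Nlrp1a* and the growth factors that were not tested are also named outside this rule. 1 gene that the rule selects is not reported here. Promoters are RefSeq windows from 250 bases before to 50 after a start site. The members and lists were chosen with earlier results of these data known.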

Additional observations from a re-analysis of the deposited data

Results flagged for a closer look

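None of the 10 members had a library that stood apart from the other 3 of its group by Dixon's test, but 6 of the 147 sets of 4 values examined did, where chance alone marks about 1 in 20. All values are in CPM. *Aim2* had 1.18 in Spl-primed replicate 4 against 0.910 to 0.944 in the others, *Il36g* had 1.96 in Spl-primed replicate 3 against 0.785 to 0.981, and *S100a8* had 1.96 in the same library against 1.29 to 1.38. *Map3k8* had 5.88 in Spl-primed replicate 2 against 4.21 to 4.35. *Csf2rb* had 0.412 in parental replicate 2 against 0.126 to 0.169, and *Csf2rb2* had 0.355 in Tu-primed replicate 1 against 0.0694 to 0.105. The last pair rests on 10 counts or fewer in every library concerned.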

How the results depend on the processing

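The 12 calls of members held in all 274 alternatives run on them, with adjusted p of at most 0.0109 (*Kitl*), and *Csf2* could not be fitted with at least 10 counts in every library. Of the values of named genes under the alternatives, 2821 kept their direction and side of the threshold, 120 lost a call, 50 gained one and 28 changed sign. Counts of members and list genes near the threshold moved, and the cause was not tested. Genes with few counts are limited by depth.

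Members called higher went from 2 to 3 between the primed groups (DESeq2, RLE scaling, the 8 libraries), from 5 to 6 for Tu-primed (authors' table) and from 4 to 3 (at least 10 counts), 5 (upper quartile) or 6 (protein-coding transcripts) for Spl-primed against parental 4T1. Calls over all tested genes moved too. Between the primed groups, genes called higher went from 585 of 12555 to 792 of 12884 (DESeq2) and 616 of 12555 (RLE scaling). With the 8 libraries there were 658 of 12481. Against parental 4T1, Tu-primed went from 3919 of 12555 to 3137 of 12550 (authors' table). Spl-primed went from 3225 of 12555 to 3108 of 11585 (at least 10 counts), 3506 (upper quartile) and 2679 of 11826 (protein-coding transcripts). Counts that moved by more than 1.5 times were these. Between Tu-primed and Spl-primed 4T1, the CSF and Kit receptors went from 1 to 0 with at least 10 counts, the 8 libraries alone or the authors' table. IL-1 family receptors went from 1 to 2 (DESeq2, the 8 libraries, protein-coding transcripts) or 0 (length offsets, authors' table), and growth factors from 1 to 2 (8 libraries) or 0 (length offsets, authors' table). Inflammasome genes went from 4 to 2 (no filter, at least 10 counts, replicate block, protein-coding transcripts, length offsets, authors' table), and MyD88 genes from 2 to 1 (replicate block) or 0 (protein-coding transcripts, length offsets, authors' table). Over all tested genes, 585 higher and 373 lower calls became 351 and 146 (length offsets) and 342 and 122 (authors' table). For Tu-primed against parental 4T1, CSF and Kit receptors went from 1 to 0 (at least 10 counts), other IL-1 ligands from 2 to 1 (at least 10 counts, length offsets, authors' table) and MyD88 genes from 7 to 4 (length offsets, authors' table). For Spl-primed against parental 4T1, members called lower went from 0 to 1, *Kitl* (DESeq2, RLE scaling, no filter, replicate block), and MyD88 genes from 8 to 5 (length offsets, authors' table). Over all tested genes, lower calls in Spl-primed 4T1 went from 2828 of 12555 to 3268 of 13603 (DESeq2) and 3175 (RLE scaling). They were 2942 of 18689 with no filter and 2701 with the replicate block. With length offsets, Tu-primed 4T1 had 3222 higher and 2897 lower calls, and Spl-primed 4T1 2592 and 2159.

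With 1 library left out, members called higher ran from 2 to 3 between the primed groups, from 5 to 6 for Tu-primed and from 4 to 5 for Spl-primed against parental 4T1, and members called lower from 0 to 0, 1 to 1 and 0 to 1. Over all tested genes, those called higher ran from 402 to 662, 3512 to 4172 and 2759 to 3382 in the same order. Those called lower ran from 118 to 531, 3150 to 3796 and 2380 to 3269. Between the primed groups, called genes ran from 0 to 1 for CSF and Kit receptors, 1 to 2 for IL-1 family receptors, 0 to 1 for growth factors, 2 to 4 for inflammasome and 0 to 3 for MyD88 genes. For Tu-primed against parental 4T1 they ran from 4 to 5 for growth factors, 7 to 9 for inflammasome and 6 to 9 for MyD88 genes, and for Spl-primed from 1 to 2 for other IL-1 ligands, 2 to 3 for IL-1 family receptors, 6 to 8 for inflammasome and 6 to 8 for MyD88 genes. Transcript shares past the test ran from 0 to 0. This range does not show that the shares were stable. A complete separation of 2 groups does not pass that test by itself.

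Signs of log2 fold changes turned in these cases. *Csf1* against parental 4T1 was -0.0082 (DESeq2), -0.0047 (RLE scaling), -0.0667 (length offsets) and -0.0834 (authors' table) in Tu-primed 4T1 and -0.0153 (authors' table) in Spl-primed 4T1, and with 1 library left out it ran from -0.0066 to 0.0338 in Tu-primed 4T1, below 0 without Tu-primed replicate 1 (-0.0007) or 4 (-0.006) or parental replicate 4 (-0.0066). *Ikbkg* in Spl-primed against parental 4T1 was -0.0525 and -0.0855, *Ltf* -0.7214 and -0.747, and between the primed groups *Il1b* was -0.1969 and -0.1149 and *Itgb2* 0.0524 and 0.0645 (length offsets and authors' table). *Ltf* was also -0.0419 without Spl-primed replicate 4 and -0.0033 without parental replicate 2 (up to 0.1233 without another library). *Il36g* between the primed groups was 0.0209 (limma-voom), 0.0068 (authors' table), 0.0251 without Tu-primed replicate 1 and 0.306 without Spl-primed replicate 3 (from -0.2258 with 1 library left out), and without the latter -0.1787 in Spl-primed against parental 4T1 (up to 0.3519). *Cldn4* between the primed groups was -0.0074, -0.0285 and -0.0157 without Tu-primed replicate 1 or 4 or Spl-primed replicate 1 (up to 0.0575). *Flt3l* between the primed groups was -0.015 without Spl-primed replicate 2 (up to 0.1969), and *Csf2rb* in Spl-primed against parental 4T1 was 0.0315 without parental replicate 2 (from -0.6534).

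Whether replicate numbers pair the libraries was not settled. Deviations from the group means correlated over 0.1 in 2 of 12 same-number pairs. Their r ran from -0.1642 to 0.1479, beside -0.2239 to 0.1679 for the other pairs. Same-number pairs of Tu-primed and parental 4T1 were all above 0 (0.0839 to 0.1479). Those of the other 2 comparisons lay on both sides of 0 (-0.1642 to 0.0721). The replicate block rests on the number alone. With the replicate block, *Kitl* in Spl-primed against parental 4T1 had an adjusted p of 0.0381, and all calls of members held.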

Other observations

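The split of reads among transcripts stood apart in single libraries for *Il18* and *Il33*. For *Il18*, the transcript of 576 coding bases that starts at base 50565374 of chromosome 9 (GRCm38) had 49.8 to 75.3 estimated counts in 3 Tu-primed libraries and none in Tu-primed replicate 2. In that library, 42.6 estimated counts were on a transcript that starts at base 50575273, with the same coding length, which had none in the other libraries. For *Il33*, Spl-primed replicate 2 had 82.1 estimated counts, or 28.0% of the gene, on the transcript from the distal start, where 10 of the other libraries had none and Tu-primed replicate 2 had 16. The gene total of *Il18* in Tu-primed replicate 2 was 60 counts, beside 62 to 83 in its group, and that of *Il33* in Spl-primed replicate 2 was 293, beside 298 to 364.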
